A study of Aspergillus nidulans with 7 samples.

Results

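Heat shock chaperones are proteins that help other proteins fold, keep them from clumping, or pull clumps apart. Hsp70 and Hsp90 fold client proteins in the cytosol with helper proteins called cochaperones. Hsp104 dissolves aggregates, small heat shock proteins hold unfolded clients, Hsp60 folds proteins inside mitochondria, and BiP is the Hsp70 of the endoplasmic reticulum. In fungi many of these genes are known to be induced by heat and other stress through the heat shock transcription factor, while BiP is also known as a target of the unfolded protein response. The 8 genes described here were taken by their identifiers: AN5129 (hsp70), AN8269 (hsp90), AN0858 (hsp104), AN6089 (hsp60), AN2062 (bipA), and AN5781, AN2530 and AN10507, listed as small heat shock proteins. They are 8 of the 10639 genes in the deposited table. A table of reference symbols gives the same names for hsp70, hsp90, hsp60 and bipA and no symbol for the other four, so hsp104 and the small heat shock proteins are called that from the list alone.

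RNA was sequenced from 7 time points of Aspergillus nidulans, a filamentous fungus, as strain FGSC A4 (genotype WT) formed conidia, its asexual spores. Mycelium was grown submerged in minimal medium, with air bubbled through at room temperature, and then filtered onto paper. Filters for 0 h went straight into liquid nitrogen, and the rest stayed wet with medium, in air and constant light, for 6, 12, 18, 24, 30 or 48 h. The labels speak of duplicate filters per time, the table holds 1 library per time, and the sources used here do not say whether filters were pooled. The labels mention no heat treatment. The question here was how the chaperone transcripts differ between submerged mycelium and the aerial stages, and how they move as conidiophores form.

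Library totals were 4186063 (12 h) to 9899347 (30 h) counts. The 0 h library stood apart from the others: its 100 most abundant genes held 45.3% of its counts, against 20.8 to 32.1% in air, and its normalization factor (TMM, which aligns the bulk of genes) was 0.459 against 0.878 to 1.39 in air. Levels below are TMM-normalized CPM, counts scaled to a common library size, unless another scale is named, and for the 8 genes the folds and fitted differences of 0 h are also given by library totals alone. rodA, the spore hydrophobin gene, had 0 counts at 0 h and reached 7560 CPM at 48 h. In such bulk samples, fewer cells that express a gene and less RNA per cell cannot be told apart.

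The submerged mycelium held far more chaperone RNA than any library from air. Together the 8 genes took 4.81% of all counts at 0 h, 0.851% at 6 h, 0.826% at 12 h and between 1.09 and 1.50% from 18 to 48 h. Of the 8 genes, 7 were higher at 0 h than in each of the 6 air libraries, with no overlap, as 27.5% of all genes tested were. The exception was bipA. The 7 genes lay above all air libraries on the TMM scale, with upper quartile factors and by totals. The 27.5% is for the TMM scale, and the share of all genes was not counted on the other scales. The RPKM values deposited by the authors give the same folds as totals, so they are no further check.

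**Figure D1:**
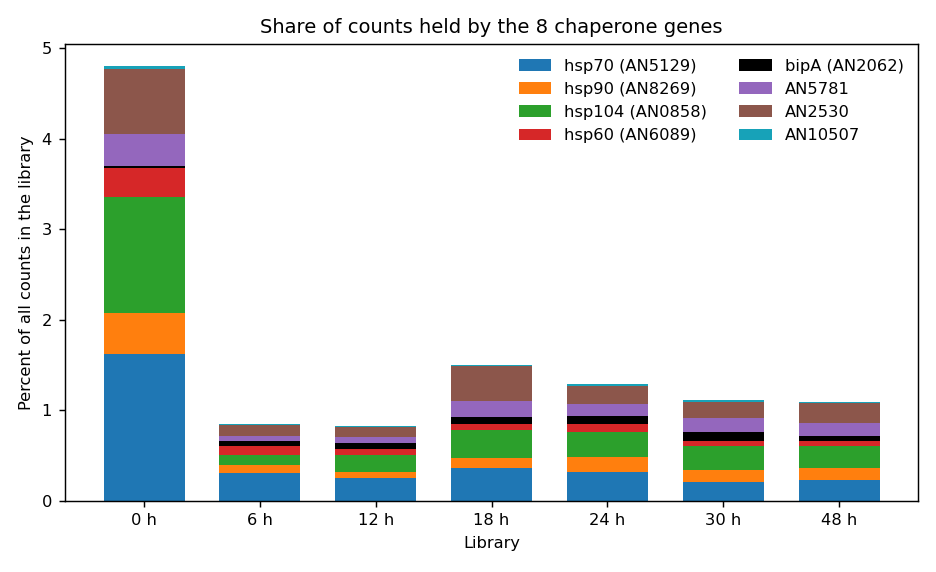
Share of all counts in each library (percent, stacked bars) held by each of the 8 chaperone genes, from 0 h to 48 h. The bar at 0 h reaches 4.81%, and those in air lie between 0.826% and 1.50%.

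hsp70, the cytosolic folding chaperone (contig 86, 88164 to 90098 in the deposited table), stood at 35389 CPM at 0 h and at 3525, 2398, 3350, 2625, 1577 and 1620 CPM at 6, 12, 18, 24, 30 and 48 h. It held 1.62% of all counts at 0 h and 0.207 to 0.359% in air. Between 0 and 6 h its level differed 10.04-fold, with an exact 95% counting interval of 9.88 to 10.21 that covers counting error only. By totals alone this fold was 5.25.

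hsp90 folds kinases, receptors and other signalling proteins (contig 142, 94836 to 96994). Its level was 9726 CPM at 0 h, then 1000.4, 701, 1051, 1333, 1037 and 983 CPM from 6 to 48 h. The ratio of 0 h to 6 h was 9.72 (counting interval 9.43 to 10.03), close to that of hsp70, and 5.08 by totals.

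hsp104, in yeast the disaggregase that rescues proteins from clumps (contig 13, 227086 to 229869), had the largest fold of the 8 genes between 0 and 6 h. Its level went from 28137 to 1294 CPM and then stood at 1766, 2938, 2258, 2019 and 1709 CPM from 12 to 48 h. Submerged mycelium thus had 21.8-fold the level of 6 h (counting interval 21.2 to 22.3) and 9.58-fold the highest level in air, at 18 h. By totals alone these folds were 11.4 and 4.11. hsp60, the mitochondrial chaperonin gene (contig 101, 161642 to 163600), had a smaller early step. It stood at 6879 CPM at 0 h and at 1034, 632, 565, 748, 377 and 398 CPM afterwards, 6.65-fold higher at 0 h than at 6 h (counting interval 6.45 to 6.86) and 17.3-fold higher than at 48 h. By totals alone these folds were 3.48 and 5.69.

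The small heat shock proteins are known as holdases that bind unfolding clients without ATP. AN2530 (contig 41, 33197 to 33742) had 15735 CPM at 0 h, then 1377, 1058, 3528, 1613, 1336 and 1588 CPM from 6 to 48 h. AN5781 (contig 96, 514831 to 515448) had 7746 CPM at 0 h, then 635, 654, 1694, 1137, 1161 and 1042 CPM. Both were high in the submerged culture, low at 6 and 12 h and raised again at 18 h. AN10507 (contig 65, 118448 to 118993) was far less abundant, with 685 CPM at 0 h, then 165, 87.5, 165, 165, 199 and 56.1 CPM up to 48 h. By totals its 0 h level was only 1.21-fold its highest level in air, at 30 h, so that its separation from air was the narrowest of the 7 genes.

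bipA, the chaperone gene of the endoplasmic reticulum (contig 31, 187227 to 189402), did not share the high 0 h level. Its level was 436 CPM at 0 h, then 663, 626, 739, 728, 807 and 397 CPM, so that its 0 h level lay inside the range in air. By totals it was below all 6 air libraries, at 200.02 CPM against 554 to 1058 CPM. Scaling by totals lowers most genes at 0 h. The fitted difference of 0 h against air was then -1.91 log2 units for bipA, beside a median of -1.62 over all genes. The share of all genes that lay below all 6 air libraries by totals was not counted. The ratio of bipA to hsp70 within a library does not depend on scaling: per length it was 0.0118 at 0 h (counting interval 0.0112 to 0.0124) and 0.180 to 0.489 in air. With 1 library against 6, a permutation test of this ratio cannot go below p = 0.143, so it is given as a description.

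**Figure D2:**
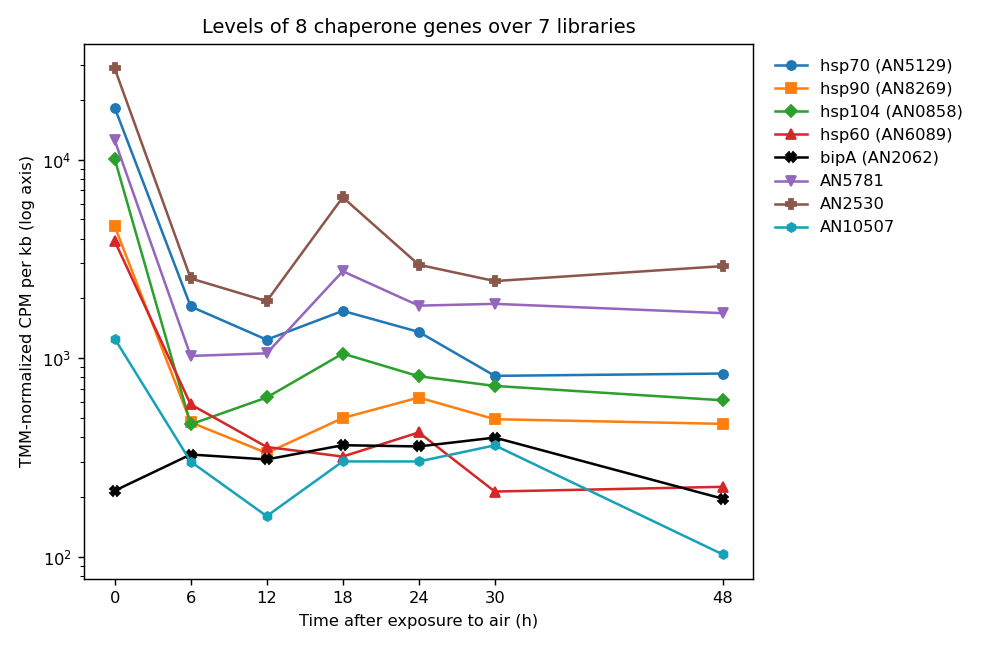
TMM-normalized CPM per kb of gene length (log axis) of the 8 genes against hours after exposure to air, 1 library per point and lines joining the points of a gene. All genes except bipA are highest at 0 h, and AN2530 lies above the others in every library, from 28818 CPM per kb at 0 h to 2909 at 48 h.

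Levels of different genes were compared per kb of the gene length the authors used. At 0 h the order was AN2530 (28818 CPM per kb), hsp70 (18289), AN5781 (12534), hsp104 (10107), hsp90 (4625), hsp60 (3893), AN10507 (1255) and bipA (215), and no neighbours in this order had overlapping counting intervals. On this scale AN2530 ranked 3 among all genes at 0 h and hsp70 ranked 10, while bipA ranked 1066. AN2530 stayed the most abundant of the 8 per kb in each air library, where it ranked between 9 (at 18 h) and 52 (at 6 h) among all genes. hsp70 ranked 67 to 127 in air, and AN5781 stood above it per kb from 18 h on. Neighbours whose counting intervals overlapped were hsp90 and hsp104 at 6 h, bipA and AN10507 at 6 h, hsp60 and hsp90 at 12 h, and hsp60 and AN10507 at 18 h.

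The difference between 0 h and air was tested with edgeR's quasi-likelihood test, taking the 6 air libraries as a group and assuming that the lone 0 h library varies like them. In this fit 7 of the 8 genes were higher at 0 h, where 7.87% of all genes tested were. The median fitted difference was 3.21 log2 units over the 8 genes and -0.29 over all genes. hsp104 was higher by 3.82 log2 units ± 0.54 (SE, 7 libraries; edgeR adjusted p = 0.0061), hsp70 by 3.81 ± 0.59 (edgeR adjusted p = 0.00897), hsp60 by 3.46 ± 0.52 (edgeR adjusted p = 0.00823) and hsp90 by 3.26 ± 0.45 (edgeR adjusted p = 0.00571). Among the small heat shock proteins the difference was 3.17 ± 0.62 for AN2530 (edgeR adjusted p = 0.0206), 2.88 ± 0.54 for AN5781 (edgeR adjusted p = 0.0191) and 2.30 ± 0.53 for AN10507 (edgeR adjusted p = 0.0309). bipA had a difference of -0.60 ± 0.50 and was not past the threshold (edgeR adjusted p = 0.42). Of the 8 genes 0 were lower at 0 h in this fit, where 4.45% of all genes were. For this direction 0 had an unadjusted p under 0.05, DESeq2 and limma-voom each called 0, and scaling by totals called bipA (-1.91; edgeR adjusted p = 0.0273).

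The calls of hsp90 and hsp104 held under all 12 alternatives run, and those of hsp70 and hsp60 under 11, missing the threshold with limma-voom (adjusted p = 0.0505 and 0.0597). limma-voom called 2 of the 8, and 230 of all 9703 genes in either direction. By totals the median difference of all genes was -1.62 in place of -0.29, and the differences were smaller: 2.55 for hsp70, 2.48 for hsp104, 2.20 for hsp60, 1.92 for hsp90 and 1.85 for AN2530, each past the test (edgeR adjusted p from 0.0161 to 0.0403). Over all genes 194 were then higher and 3313 lower at 0 h, against 764 and 432 with TMM. Scaled this way, AN5781 (1.53; edgeR adjusted p = 0.0651) and AN10507 (0.99; edgeR adjusted p = 0.16) were not past the test. Without the 24 h library AN5781, AN2530 and AN10507 were not past it, with differences of 2.90, 3.15 and 2.35. Fewer of all genes were called higher at 0 h then too, as without the 12, 18 or 30 h library. The call of AN10507 was lost with the 12, 18 or 30 h library left out, and that of AN2530 with the 30 h library left out (edgeR adjusted p from 0.0514 to 0.0555).

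**Figure D3:**
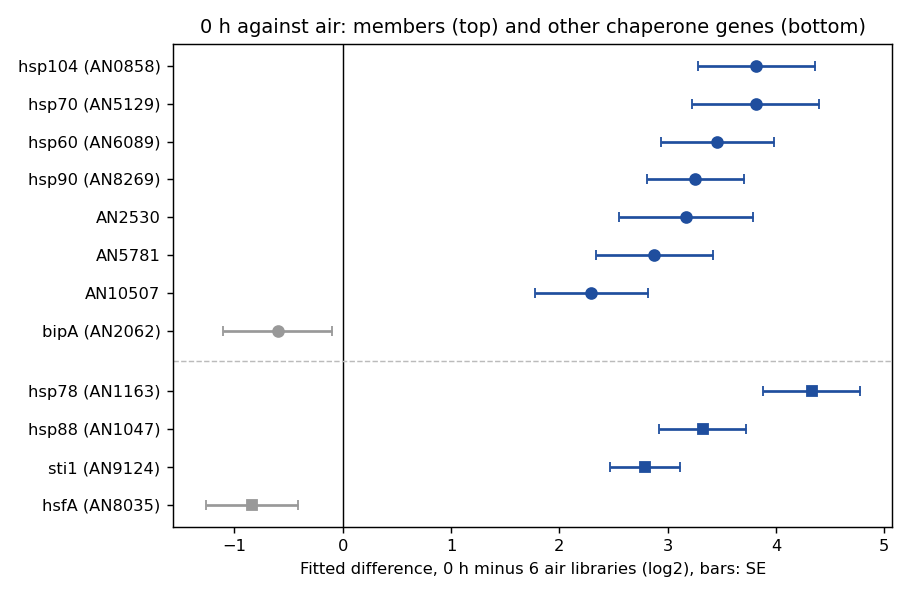
Fitted difference between the 0 h library and the 6 air libraries (log2, 0 h minus air, bars are SE) for the 8 members (circles, top) and 4 other chaperone or regulator genes (squares, bottom). Blue marks an edgeR adjusted p under 0.05 and grey the rest; 7 members and 3 of the 4 other genes lie to the right of 0, and bipA and AN8035, entered as hsfA, lie to the left.

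The same direction was seen in most of the other chaperone genes, a list of 5 built from reference symbols and 1 entered identifier. In the fit of 0 h against air the list median was 2.79, the value of sti1, against -0.29 for all genes. The list also holds AN8035 and cprA, which are not known as chaperone genes. Levels and differences of the list are on the TMM scale only. By totals each ratio of 0 h to an air library is smaller. hsp78, known in yeast as the mitochondrial relative of Hsp104, went from 4621 CPM at 0 h to between 143 and 346 CPM in air (4.33 ± 0.45; edgeR adjusted p = 0.00212). hsp88, named for a chaperone of the Hsp110 family known in Neurospora, went from 4414 to between 358 and 634 CPM (3.32 ± 0.40; edgeR adjusted p = 0.00358). sti1, in yeast the cochaperone that links Hsp70 and Hsp90, went from 2085 to between 274 and 360 CPM (2.79 ± 0.32; edgeR adjusted p = 0.003). AN8035, entered as the heat shock factor gene hsfA, stood at 58.3 CPM at 0 h and 74.1 to 141 CPM in air (-0.84 ± 0.42; edgeR adjusted p = 0.2). cprA, picked up by its symbol, is known as a cytochrome P450 reductase gene and not as a chaperone. It was not past this test (2.17), but its slope over 0 to 48 h fell, from 2808 to 242 CPM (edgeR adjusted p = 0.00421). The slopes of hsp78 (-4.28; edgeR adjusted p = 0.0407) and hsp88 (-3.05; edgeR adjusted p = 0.0472) fell too. In all 3 of the 5 list genes fell over this span, where 12.4% of all genes did.

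Of 7 genes listed for folding in the endoplasmic reticulum, 1 was higher at 0 h and 6 were not called, beside the 7.87% of all genes higher at 0 h, with a median difference of 0.10 against -0.29 for all genes. The one called was ireA, the sensor kinase of the unfolded protein response, at 659 CPM at 0 h and 162 to 202 CPM in air (1.87 ± 0.29; edgeR adjusted p = 0.00897). hacA, the transcription factor gene that acts after ireA, stood at 115 CPM at 0 h and 230 to 379 CPM in air and was not past the test (-1.48 ± 0.44; edgeR adjusted p = 0.0609). pdiA, a protein disulfide isomerase gene, stood at 325 CPM and 377 to 454 CPM, and clxA, the calnexin gene, at 294 CPM and 117 to 335 CPM. Levels and differences of this list, ireA included, are on the TMM scale only. By totals each ratio of 0 h to an air library is smaller, as the 0 h factor was 0.459 against 0.878 to 1.39 in air. AN0075, entered as prpA, had a difference of -0.32. The list also took in prp8 and prp28 by their symbols, which are known as splicing factor genes. The list median of 0.10 is the value of prp28 itself, and prp8 had a difference of 0.50. It thus does not describe folding genes. Apart from these, hacA (-1.48), pdiA (-0.37) and AN0075 (-0.32) lay below 0, and ireA (1.87) and clxA (0.46) above. No gene of this list passed the edgeR test of the slope over 0 to 48 h or over 6 to 48 h.

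The slope over 0 to 48 h describes a steady trend with hours, given as the change across the whole span. In edgeR 2 of the 8 genes fell, where 12.4% of all genes did, and 0 rose, where 10.6% did. The change was -3.61 ± 0.96 (SE) for hsp60 (edgeR adjusted p = 0.0275) and -3.90 ± 1.07 for hsp70 (edgeR adjusted p = 0.0301), while those of AN10507 and hsp104 missed the threshold (edgeR adjusted p = 0.0523 and 0.0728). On a scale of log2 hours plus 6, which gives early hours more weight, 7 fell, where 1547 of all 9703 genes did. limma-voom called 0, where 1128 of 9703 genes fell. Without the 0, 24 or 30 h library 0 were called too, where 841 of 9691, 900 of 9669 and 691 of 9617 genes fell. Without the 18 h library 1 fell, hsp60, where 925 of 9681 genes did. Without the 6 h library 4 did, where 1205 of 9702 genes did. A rise was called for 0 of the 8 by DESeq2 and by limma-voom, and 0 had an unadjusted p under 0.05 for one. A curve of hours and hours squared passed the edgeR F test for hsp60, hsp70, hsp104 and hsp90 (adjusted p = 0.00552, 0.00716, 0.0339 and 0.0364), 4 of 8 against 32.0% of all genes. Without the 0 h library 0 were called, and without the 18, 24 or 30 h library only hsp70 and hsp60.

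From 0 to 6 h, 7 of the 8 genes were at least 2-fold lower at 6 h, where 20.7% of the genes that reached 10 CPM in either library were. This pair has no replicate check. The 7 genes also passed a 4-fold threshold, and by totals the 2-fold one. The 20.7% is for 2-fold on the TMM scale, and the share of all genes was not counted for the other settings. The folds of the small heat shock proteins were 12.2 for AN5781 (counting interval 11.8 to 12.7), 11.4 for AN2530 (11.1 to 11.7) and 4.16 for AN10507 (3.83 to 4.52), and by totals 6.38, 5.97 and 2.18 in the same order. bipA was 1.52-fold higher at 6 h than at 0 h (counting interval 1.43 to 1.62), or 2.91-fold by totals.

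Growth in air from 6 to 48 h showed smaller and mixed movements. In the edgeR slope over these 6 libraries 0 of the 8 genes fell, where 8.68% of all genes did, and 0 rose, where 10.1% did. For a fall 2 had an unadjusted p under 0.05, hsp70 (-1.10 ± 0.45; edgeR adjusted p = 0.119) and hsp60 (-1.21 ± 0.45; edgeR adjusted p = 0.093). DESeq2 called those 2 and limma-voom called 0, where 1285 and 944 of all 9691 genes fell. A rise over 6 to 48 h had an unadjusted p under 0.05 for 0 genes and was called for 0 by DESeq2 or limma-voom. The highest level in air was 1.90- to 3.54-fold the lowest for each of the 8 genes.

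By eye, the courses in air could be put into groups that were drawn after their values were seen, and they carry no test. hsp70 and hsp60 were highest at 6 h and lowest at 30 h on the TMM scale, while by totals their highest levels in air were at 18 h for hsp70 and 24 h for hsp60 (Pearson r = 0.854 between their log2 levels over 6 libraries). hsp90 was lowest at 12 h, at 701 CPM, and highest at 24 h, at 1333 CPM.

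hsp104, AN5781 and AN2530 had their highest level in air at 18 h, the time of phialide formation by the labels. From 12 to 18 h, AN2530 went up 3.34-fold (counting interval 3.23 to 3.45) and AN5781 2.59-fold (2.48 to 2.70), the 2 of 8 genes past 2-fold upward, where 2.71% of all genes were. hsp104 went up 1.66-fold (1.62 to 1.71). From 18 to 24 h AN2530 went back by 2.19-fold (2.13 to 2.24), the 1 gene of the 8 past 2-fold downward, where 1.83% of all genes were; by totals this fold was 1.93. Within the libraries, AN2530 was per length 3.73 times hsp70 at 18 h, against 1.56 at 12 h, 2.18 at 24 h and 3.47 at 48 h.

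bipA and AN10507 were highest in air at 30 h and lowest at 48 h (r = 0.935 over 6 libraries). From 30 to 48 h bipA was 2.03-fold lower (counting interval 1.96 to 2.10) and AN10507 3.54-fold lower (3.26 to 3.86), 2 of 8 past 2-fold downward, where 10.2% of all genes were. By totals the fold of bipA was 1.91. The other 6 genes differed by at most 1.19-fold between these times.

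**Figure D4:**
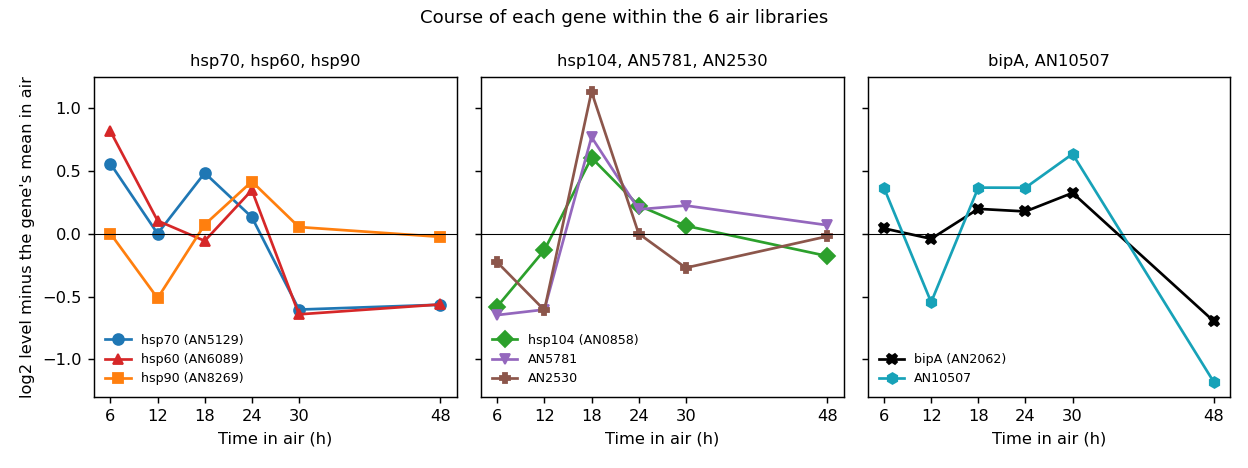
Log2 level of each gene (TMM-normalized CPM plus 0.5) minus its own mean over the 6 air libraries, against hours in air, in panels grouped by shape after the values were seen. hsp104, AN5781 and AN2530 peak at 18 h, at 0.60, 0.77 and 1.13 above their means, and bipA and AN10507 lie 0.70 and 1.18 below theirs at 48 h.

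The balance between chaperones shifted during development, measured per length within each library and so free of scaling. Against hsp70, AN5781 stood at 0.685 at 0 h, 0.564 at 6 h, 1.58 at 18 h and 2.30 at 30 h. hsp90 stood at 0.253 at 0 h, 0.261 at 6 h, 0.289 at 18 h and 0.605 at 30 h. hsp104 stood at 0.553 at 0 h, 0.255 at 6 h and 0.890 at 30 h (counting interval 0.874 to 0.906). Its ratio was 0.512 at 12 h, 0.610 at 18 h, 0.598 at 24 h and 0.733 at 48 h. For hsp60 the ratio stayed between 0.185 and 0.321 in all 7 libraries. These ratios have no replicate check. All share hsp70 as the denominator, and hsp70 itself was lowest at 30 h, by TMM and by totals.

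Genes outside the 8 with the most similar course were ranked by the Pearson r of log2 levels over the 7 libraries, among 6177 candidates. These r values share the high or low 0 h library and are descriptions. For hsp104 the nearest genes with this measure were AN4313 (r = 0.997), AN7484 (r = 0.995) and hsp78 (r = 0.991). For AN2530 they were AN2590 (r = 0.991), AN7892 (r = 0.989) and fes1 (r = 0.976), which in yeast is a nucleotide exchange factor of Hsp70. At 0, 12 and 18 h, AN7892 had 6261, 253 and 951 CPM and fes1 had 1202, 65.1 and 135 CPM. Both were thus also higher at 18 than at 12 h. They were picked for a course like that of AN2530 over libraries that include these times, so this likeness is no separate result.

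For hsp70 the nearest were AN10547 (r = 0.996), AN6322 (r = 0.996) and AN6613 (r = 0.995), and for hsp90 AN6491, AN7321 and AN5611 (r = 0.995, 0.991 and 0.989). For hsp60 they were AN10337, AN0330 and AN1200 (r = 0.995, 0.992 and 0.99), and for AN5781 AN1841, AN3027 and AN4224 (r = 0.997, 0.992 and 0.988). The reference gives none of these a symbol. For bipA they were prnB, a proline transporter gene, AN6857 and AN0617 (r = 0.977, 0.974 and 0.965), and for AN10507 pex13, a peroxisome import gene, AN1975 and AN10580 (r = 0.978, 0.975 and 0.975).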

How the data were processed

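Per the file headers, the authors deposited a count per gene and library, the RPKM, and a signal per nucleotide of gene length; by their values, the RPKM is scaled to summed counts. The counts as deposited were tested. The signal deposited by the authors gave each gene's length. The submitters' processing notes name CASAVA. The sources used here give no aligner, build, annotation or strand setting, so near-identical paralogs and antisense genes cannot be separated. Contig positions are those of the deposited table.

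edgeR 4.0.16 (R 4.3.3; quasi-likelihood, robust, TMM) was fitted to all genes that reached 1 CPM in any library and 15 counts over all libraries. Fits were the slope on hours over 0 to 48 h and 6 to 48 h, 0 h against air, and a curve. P-values were Benjamini-Hochberg adjusted over all genes, with a threshold of 0.05. With 1 library per time, departures from a fit count as error and may be technical. Pairs of times were compared by size: 2-fold in CPM plus 0.5, with 10 CPM in the higher. Alternatives were totals, upper quartile and DESeq2 factors, no filter, DESeq2 1.42.0, limma-voom (limma 3.58.1), log2 hours plus 6, and leaving out each library. On simulated counts, 0 h against air recovered 37% of differences of 2 log2 units and 96% of those of 4, with 3 false among 136 calls over 9562 genes. The simulation gave all libraries the same spread per gene and changed few genes, up and down in equal number. It therefore could not check the assumption that the lone 0 h library varies like those in air. Intervals are exact at 95% and cover counting error only. Levels and figures used SciPy 1.17.1, pandas 2.3.3, matplotlib 3.10.9 and Python 3.11.15.

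All 8 genes passed the filter in each fit. Genes and lists were chosen with earlier results of these data known. Named beyond the 8 were list genes called in the slope over 0 to 48 h or in 0 h against air, the 3 nearest genes by course, and, after their values were seen, AN8035, hacA, pdiA, clxA, AN0075, prp8 and prp28. The check of stage also named rodA, brlA, abaA and wetA. A chaperonin and prefoldin list matched 0 reference symbols. Protein and promoter sequences were not used here.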

Additional observations from a re-analysis of the deposited data

How the results depend on the processing

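The count of 7 members higher at 0 h became 2 with limma-voom and ran from 4 to 7 when 1 air library was left out; scaling by totals called 1 member, bipA, lower at 0 h. Where leaving out an air library lowered this count of members higher at 0 h, fewer of all genes were called higher too. Over 0 to 48 h the count of fallen members was 4 with DESeq2, 0 with limma-voom and 7 on log2 hours plus 6. In the same order 1576, 1128 and 1547 of all 9703 genes fell, against 1204 in the main fit. The count of members ran from 0 to 4 when a library was left out, where 691 to 1205 of all genes fell. Over 6 to 48 h DESeq2 called 2 fallen, where 1285 of all 9691 genes were. The curve called 7 with DESeq2 and 2 with limma-voom, where 3862 and 2644 of all 9703 genes were called. It called 0 to 6 members when a library was left out, where 1640 to 4396 of all genes were called. At a 4-fold threshold the count was 0 for 12 to 18 h, for 18 to 24 h and for 30 to 48 h. By totals it was 0 for 18 to 24 h and 1 for 30 to 48 h. The shares of all genes were not counted for these settings. Among changes that were not past the test, the sign turned for some. For bipA over 0 to 48 h the change was 1.14 by totals, 0.21 with upper quartile factors and 0.29 on log2 hours plus 6, and ran from -0.53 to 0.71 when a library was left out. Over 6 to 48 h it was 0.10 by totals and ran from -0.68 to 0.36. For AN2530 over 6 to 48 h it was 0.56 by totals, 0.074 with upper quartile factors, 0.16 with limma-voom and 0.17 on log2 hours plus 6, and ran from -0.39 to 0.38. Leaving out a library gave -2.92 to 0.22 for hsp90, -3.69 to 0.15 for hsp104 and -2.53 to 0.60 for AN5781 over 0 to 48 h, where the positive value came without the 0 h library. Over 6 to 48 h it gave -0.028 to 0.44 for hsp90, -0.35 to 0.70 for hsp104 and -1.36 to 0.54 for AN10507. The cause of these changes was not tested. Of 312 single-gene alternatives 256 kept direction and side of the threshold, 23 lost the call, 13 gained it and 20 turned sign. Only results called in the main run could lose a call, and most results were not called there. Most of the 256 are thus uncalled results that stayed uncalled, and 23 of 312 is no measure of how firm the calls are. Depth limits AN10507 most, with 382 counts at 12 h. No paired analysis was possible because each time has 1 library.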
